A study of Homo sapiens with 14 samples.

Results

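The overlap of BRM with SOX2 was examined in naïve human embryonic stem cells (hESCs) of the established line WIBR3. The naïve SOX2 list held 1940 peaks on chromosomes 1 to 22 and X and the naïve BRM list held 17413, together 19353 of the 222964 peaks in the lists of the series. A SOX2 peak was assigned to BRM when at least 25% of either region was covered by the other. This rule placed 848 SOX2 peaks with BRM, 1092 SOX2 peaks without BRM and 16573 BRM peaks without SOX2, and it left 840 BRM peaks with SOX2 on the BRM side of the same pairs. The start and end positions alone chose the groups, so peak width entered the rule. The fold enrichment, genes, sequence and other peak lists were compared afterwards.

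Naïve cells were grown in 5i/L/A medium and primed cells, the second state of the series, in conventional hESC medium with FGF2, both on inactivated mouse embryonic fibroblasts. The labels name no genetic change or further treatment for either culture. SOX2 was sequenced from paired ends and called as narrow peaks, whereas BRM, BRG1 and BAF155 were sequenced from single ends on another instrument and called as broad peaks. Antibody, read type, sequencing facility and peak type therefore differ together between the SOX2 and BRM lists and cannot be told apart. Peak positions do not measure expression, so the naïve and primed labels could not be checked against marker genes.

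SOX2 is a pluripotency transcription factor that bends DNA through its HMG box and binds many enhancers of stem cells together with OCT4. BRM (SMARCA2) is one of the alternative ATPases of the BAF chromatin remodelling complex, the other being BRG1 (SMARCA4), and a single complex carries one of them. BAF155 (SMARCC1) is a scaffold subunit found with either ATPase. A site held by SOX2 and BRM in the peak lists is a site where both proteins were recovered from a cell population, which does not show that they were bound to one DNA molecule at once.

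One peak list was used per protein and state. The second SOX2 list of each state carried the same coordinates as the first for all 1941 naïve and 9291 primed peaks and was counted with it as 1 sample. Intervals below are exact 95% intervals for a share and Newcombe 95% intervals for a difference of shares in percentage points. They cover counting error within these lists, not the spread between cultures, and a difference was counted as such where its interval left out 0. The study's quality table lists fewer reads for naïve BRM than for naïve BRG1, BAF155 or SOX2, and its supplement counts more SOX2 peaks in each state than the lists used here hold. How the groups would fall at equal depth or with longer SOX2 lists was not tested.

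The sequence at the summit, the position of highest SOX2 signal, is shown for strong SOX2 peaks and for peaks beside pluripotency genes, to show how the OCT4-SOX2 composite element reads in both groups. The windows were picked after their sequences were seen, most of them because they hold the element, and POU5F1 lies outside the rule for named sites. Of the 26 windows read, 9 hold it, 5 with BRM and 4 without. All are 120 bp of the hg38 plus strand centred on the SOX2 summit. Capitals mark a match to the OCT4-SOX2 composite element, a SOX core joined to an octamer, with up to 2 mismatches over its 13 fixed letters.
SMARCA2, with BRM, chr9:2018953-2019072: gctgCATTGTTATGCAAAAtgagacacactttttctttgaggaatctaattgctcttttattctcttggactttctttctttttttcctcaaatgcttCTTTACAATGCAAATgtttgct
SPIC, with BRM, chr12:101474235-101474354: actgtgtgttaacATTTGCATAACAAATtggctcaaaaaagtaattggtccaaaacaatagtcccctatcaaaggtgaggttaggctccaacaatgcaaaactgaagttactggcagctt
SOX2, with BRM, chr3:181716084-181716203: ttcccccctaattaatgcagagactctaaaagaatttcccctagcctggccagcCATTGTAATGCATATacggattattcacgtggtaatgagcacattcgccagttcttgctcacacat
POU5F1, with BRM, chr6:31173041-31173160: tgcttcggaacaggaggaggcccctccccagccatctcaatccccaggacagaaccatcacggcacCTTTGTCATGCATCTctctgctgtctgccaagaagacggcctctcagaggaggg
ETV6, with BRM, chr12:11609088-11609207: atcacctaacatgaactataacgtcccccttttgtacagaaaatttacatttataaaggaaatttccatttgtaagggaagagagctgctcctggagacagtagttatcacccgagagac
REST, with BRM, chr4:56907523-56907642: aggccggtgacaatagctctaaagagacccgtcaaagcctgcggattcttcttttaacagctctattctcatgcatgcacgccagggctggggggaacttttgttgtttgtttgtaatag
NANOG, without BRM, chr12:7789259-7789378: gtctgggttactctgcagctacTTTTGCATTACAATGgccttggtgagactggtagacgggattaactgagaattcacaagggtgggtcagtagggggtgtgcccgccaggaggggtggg
KLF5, without BRM, chr13:73038226-73038345: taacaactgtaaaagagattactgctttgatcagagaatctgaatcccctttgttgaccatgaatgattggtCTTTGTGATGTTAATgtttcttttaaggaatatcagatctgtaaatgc
NLGN1, without BRM, chr3:174232721-174232840: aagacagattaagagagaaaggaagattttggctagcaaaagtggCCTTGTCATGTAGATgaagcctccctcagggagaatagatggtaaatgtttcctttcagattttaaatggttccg
ZNF483, without BRM, chr9:111529848-111529967: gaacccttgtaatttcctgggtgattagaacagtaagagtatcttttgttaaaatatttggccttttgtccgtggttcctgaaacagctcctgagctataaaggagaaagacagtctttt
The SMARCA2 window held 2 composite matches and the SPIC, SOX2 and POU5F1 windows held 1 each, all at sites with BRM. The NANOG, KLF5 and NLGN1 windows also held 1 each, at sites without BRM. The match lies on the minus strand at SPIC and NANOG and on the plus strand at the others. The ETV6 window, at the strongest SOX2 peak of all, held neither this match nor the exact SOX core described below, and neither did the REST window or that of ZNF483, the strongest peak without BRM.

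BRM lay at 43.7% of the naïve SOX2 peaks (848 of 1940, 95% interval 41.5 to 46.0). Seen from BRM, the overlap was small, with SOX2 at 4.82% of the BRM peaks (840 of 17413, 4.51 to 5.15). Where both were called they lay close together. The SOX2 summit fell inside the BRM peak for 765 of 848 pairs (90.2%), the SOX2 peak lay wholly inside the BRM peak for 322, and the median distance from the summit to the BRM midpoint was 105 bp (quartiles 46 and 204 bp). Only 8 BRM peaks held more than 1 SOX2 peak.

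Most SOX2 peaks without BRM were far from any BRM peak. Their median gap to the nearest one was 46.9 kb. A BRM peak lay within 1 kb for 98 of them (8.97%) and within 10 kb for 272 (24.9%), and 19 touched a BRM peak by less than the rule asked. Just inside the threshold, a SOX2 peak nearest to BRIP1 shared 65 bp with BRM (25.2% of the SOX2 peak). Just outside it, a peak 4.46 kb upstream of LEFTY2, which encodes an inhibitor of NODAL signalling, shared 51 bp (22.6%), and a peak near ARHGAP42 shared 53 bp (22.1%).

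SOX2 peaks with BRM were stronger and wider than those without. Their median fold enrichment over input, as given by the authors' peak caller, was 7.80 (95% interval of the median 7.47 to 8.03) against 6.96 (6.77 to 7.06), and their median width was 302 bp against 269 bp. When the SOX2 peaks were ranked by fold and divided into 5 bins of equal size, BRM lay at 40.2%, 35.1%, 38.7%, 46.4% and 58.2% of them, from the lowest bin to the highest (53.2 to 63.2 for the highest). Of the 100 SOX2 peaks of highest fold, 65 had BRM. Ranking by width gave shares that went from 31.2% in the narrowest bin to 57.2% in the widest. A wider peak meets the overlap rule more easily, so the width differences can follow in part from the rule. How much of them does was not tested. With every peak set to 500 bp around its midpoint, the share of SOX2 peaks with BRM was 41.9%. Stricter rules lowered it, to 21.7% with 50% of both regions covered, 10.3% with BRM peaks of −log10 q of at least 3 and 3.61% with as many BRM as SOX2 peaks.

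The order was the opposite on the BRM side. SOX2 lay at 8.58% of the BRM peaks in the lowest of 5 bins of BRM fold and at 5.43%, 4.77%, 3.42% and 1.92% in the following ones. BRM peaks with SOX2 had a median fold of 3.07 (3.04 to 3.11) against 3.28 (3.27 to 3.29) without SOX2, and a median width of 463 bp against 312 bp. Width moved with the SOX2 share, from 2.67% in the narrowest bin of BRM peaks to 8.85% in the widest, and its part in the order by fold was not tested. Here too, a wider peak meets the overlap rule more easily. Ranked by −log10 q, the SOX2 share was 3.45%, 4.48%, 4.77%, 6.46% and 4.97%. The order on the BRM side therefore differed with the measure of strength.

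**Figure D1:**
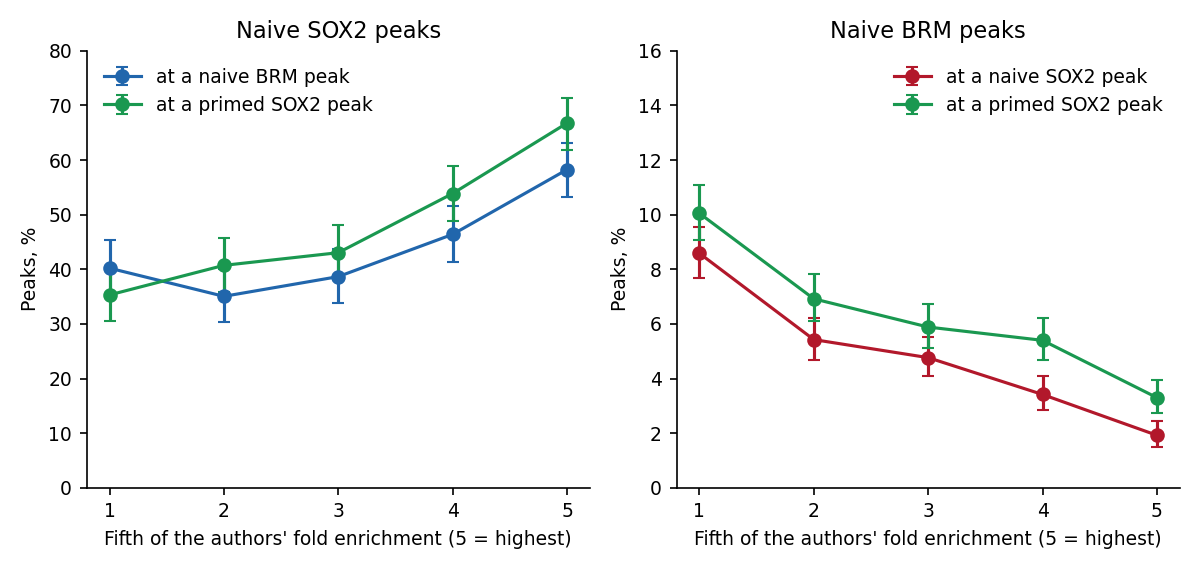
Share of peaks (%, y axis) that overlap another list, by bin of the authors' fold enrichment, 5 bins from low to high (x axis), for naïve SOX2 peaks (left) and naïve BRM peaks (right); points are shares and bars exact 95% intervals. BRM lay at 58.2% of the strongest bin of SOX2 peaks, while SOX2 lay at 1.92% of the strongest bin of BRM peaks.

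The first question was where the 3 groups lie relative to genes. SOX2 peaks sat mostly away from promoters, with BRM or without. A midpoint within 1 kb of an annotated transcription start site (TSS) was found for 10.5% of SOX2 peaks with BRM (89 of 848, 8.51 to 12.8) and 9.52% of those without (104 of 1092, 7.85 to 11.4). BRM peaks without SOX2 reached 32.9% (5447 of 16573, 32.2 to 33.6). The first 2 groups differed by 0.971 points (-1.70 to 3.73), an interval that holds 0, and SOX2 peaks with BRM lay 22.4 points below BRM peaks without SOX2 (interval of the difference -24.4 to -20.0). The 840 BRM peaks with SOX2, measured at their own midpoints, gave 11.2%.

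The median distance to a TSS was 8.66 kb for SOX2 peaks with BRM (quartiles 3.28 and 22.5 kb), 9.98 kb for those without (3.31 and 27.8 kb) and 3.60 kb for BRM peaks without SOX2 (0.439 and 12.2 kb). Among peaks over 1 kb from any TSS the medians were 10.5, 11.7 and 8.21 kb, so BRM peaks without SOX2 were also nearer to genes outside promoters. SOX2 peaks with BRM were less often intronic than those without (46.5% against 51.5%, difference -5.00 points, -9.46 to -0.518) and more often intergenic (39.9% against 35.3%, 4.60 points, 0.265 to 8.94). BRM peaks without SOX2 were intronic in 36.1% and intergenic in 27.3%. With only BRM peaks of −log10 q of at least 3, the promoter shares of the SOX2 groups differed by 7.39 points (2.64 to 13.3), and among the strongest of 3 equal groups of SOX2 peaks by 5.03 (0.242 to 9.74). The same limit on BRM brought the gap between SOX2 peaks with BRM and BRM peaks without SOX2 to -10.9 points (-15.6 to -4.89).

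**Figure D2:**
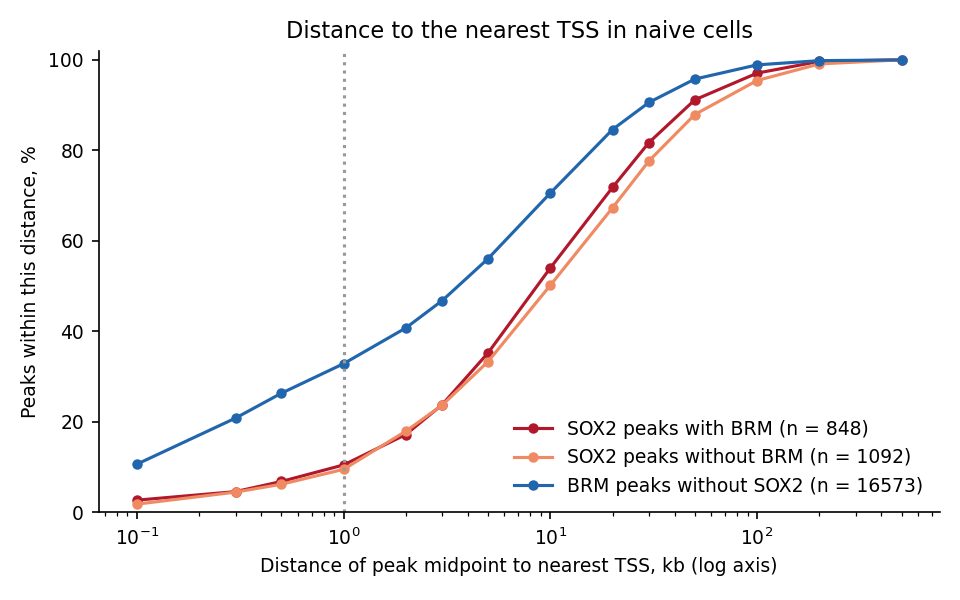
Share of peaks (%, y axis) whose midpoint lies within a given distance (kb, log x axis) of the nearest annotated TSS, for 848 SOX2 peaks with BRM, 1092 SOX2 peaks without BRM and 16573 BRM peaks without SOX2; the dotted line marks 1 kb. The curves of the SOX2 groups run together, at 10.5% and 9.52% at 1 kb, below the 32.9% of BRM peaks without SOX2.

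The second question was whether naïve SOX2 sites with BRM are also SOX2 sites in the primed state. Of all 1940 naïve SOX2 peaks, 47.9% overlapped 1 of the 9290 primed SOX2 peaks. The share was 52.2% with BRM (443 of 848, 48.8 to 55.6) and 44.6% without (487 of 1092, 41.6 to 47.6), a difference of 7.64 points (3.16 to 12.1). At promoters the shares were 68.5% and 49.0% (19.5 points, 5.55 to 32.3), and over 1 kb from any TSS 50.3% and 44.1% (6.20 points, 1.48 to 10.9). The share was higher with BRM on 17 of the 23 chromosomes. Chromosomes are parts of the same lists and not replicates, and some held few peaks, such as chromosome 21 with 10 at BRM. The primed partner peaks themselves were alike in strength, with a median fold of 9.66 (9.10 to 10.5) where BRM was present and 9.41 (9.03 to 9.78) where it was not.

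SOX2 strength moved with this result. From the lowest to the highest of the 5 bins of naïve SOX2 fold, the share at a primed SOX2 peak was 35.3%, 40.7%, 43.0%, 53.9% and 66.8%, and peaks with BRM were the stronger ones. In 3 equal groups by SOX2 fold, the difference between peaks with and without BRM was -1.03 points in the lowest (-8.57 to 6.66), 10.1 in the middle (2.25 to 17.8) and 5.56 in the highest (-1.91 to 13.0), so the interval left out 0 in the middle group alone. Among peaks that also overlapped a naïve BRG1 and a naïve BAF155 peak, the difference was 4.75 points and its interval held 0 (-0.119 to 9.58).

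Sites of naïve BRM without naïve SOX2 were rarely SOX2 sites in primed cells. A primed SOX2 peak lay at 660 of 16573 (3.98%, 3.69 to 4.29), against 439 of the 840 BRM peaks with naïve SOX2 (52.3%) and 6.31% of all naïve BRM peaks. The difference was 48.3 points (44.9 to 51.7), and 26.3 points (23.4 to 29.4) when the primed list was reduced to as many peaks as the naïve one. One of the 660 was a BRM peak 1.09 kb upstream of LIN28A, which encodes an RNA-binding protein that blocks let-7 maturation; the primed SOX2 peak there had a fold of 12.1. Looked at from the primed list, naïve BRM lay at 441 of 930 primed SOX2 peaks that were also naïve SOX2 sites (47.4%, 44.2 to 50.7) and at 671 of 8360 that were not (8.03%, 7.45 to 8.63). Among the latter, the share hardly moved with primed SOX2 fold, at 7.48% in the lowest of 5 bins and 8.86% in the highest, and it was 13.0% at promoters and 7.04% elsewhere. The part of SOX2 strength in the gap between shared and other primed sites was not tested.

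Nearly every SOX2 peak with BRM lay in a BRG1 and a BAF155 peak of the same state. Of all naïve SOX2 peaks, 88.9% overlapped BRG1 and 87.8% overlapped BAF155. With BRM the shares were 99.3% for BRG1 (842 of 848) and 99.1% for BAF155 (840 of 848), and without BRM they were 80.9% and 79.1%, differences of 18.4 points (16.1 to 20.9) and 19.9 points (17.5 to 22.5). With every peak set to 500 bp the differences were 8.77 and 8.96 points, and with 25% of both regions covered 4.89 and 7.61. Neither subunit was called at 3 SOX2 peaks with BRM (0.354%) and at 131 of the 1092 without. For BRM peaks without SOX2 the overlap was with BRG1 in 87.1% and BAF155 in 90.3%. A SOX2 peak without BRM was thus, in most cases, a site with BRG1 and BAF155 (786 of 1092, 72.0%) at which no BRM peak was called. The BRG1 and BAF155 lists hold 57853 and 62338 peaks against 17413 for BRM, and whether a lower threshold would place BRM at these sites was not tested.

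Sites of naïve SOX2 with BRM also overlapped primed BAF subunits more often. Primed BAF155 overlapped 61.2% of all naïve SOX2 peaks, 69.6% of those with BRM (590 of 848) and 54.8% of those without (598 of 1092), a difference of 14.8 points (10.5 to 19.0). Primed BRG1 overlapped 37.3% and 23.3% (14.0 points, 9.89 to 18.1). The remaining BRM peaks were at 49.5% for primed BAF155 and 22.8% for primed BRG1. The primed BRM list held only 167 peaks, and 2 SOX2 peaks with BRM, 3 without and 18 BRM peaks without SOX2 overlapped it.

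**Figure D3:**
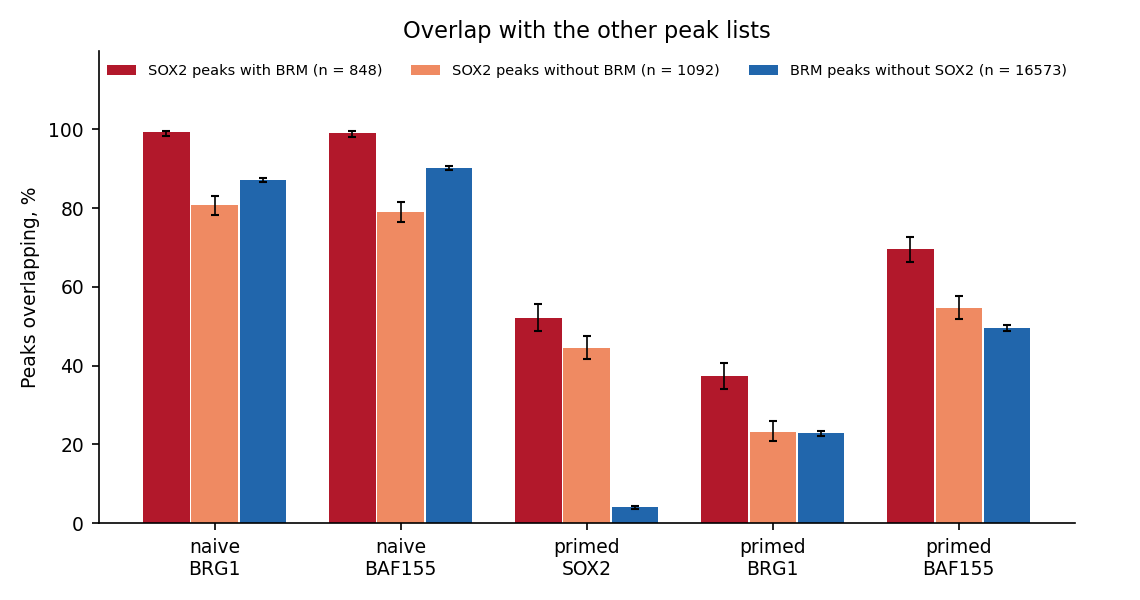
Share of naïve peaks (%, y axis) that overlap a peak of the list named on the x axis, by at least 25% of either region, in the 3 groups; bars are shares and error bars exact 95% intervals. SOX2 peaks with BRM were highest in all 5 lists, and BRM peaks without SOX2 reached 3.98% for primed SOX2.

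Sequence was compared in 200 bp windows, at the summit for SOX2 peaks and at the midpoint for BRM peaks, against windows 2 kb to either side. Motifs were read on both strands as letters: CATTGT or CTTTGT for the SOX core, ATGCAAAT for the octamer, GGGTGTGGC or GGGCGTGGC for KLF factors, GCCNNNGGC for TFAP2, CCTGCTG for ZIC, GGAATG for TEAD, and the OCT4-SOX2 composite and CTCF elements by consensus with up to 2 mismatches. The composite overlaps the SOX core and octamer. A match describes the letters in the window and names a family of factors, not a bound protein.

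SOX and OCT4 letters marked both SOX2 groups. The SOX core was found in 57.2% of windows with BRM and 60.6% of those without (difference -3.43 points, -7.84 to 0.977; -4.78 over 1 kb from any TSS, -9.42 to -0.138), against 23.6% and 24.3% in the flanks. The composite was found in 27.5% (233 of 848, 24.5 to 30.6) and 22.7% (248 of 1092, 20.3 to 25.3), a difference of 4.77 points (0.887 to 8.68), against 0.590% and 0.824% in the flanks. For comparison, 0.340% of windows of the same length at 145919 protein-coding TSSs and 1.57% of those at naïve BRG1 peaks without SOX2 held a composite. Among the strongest of 3 equal groups of SOX2 peaks the composite shares were 35.0% and 26.6% (8.39 points, 1.25 to 15.4), and among the weakest 16.2% and 19.3%, where the interval held 0. Among peaks with less than 50% repeated 32-mers the difference was 2.90 points and its interval held 0 (-1.36 to 7.18). The octamer was found in 12.7% with BRM and 14.7% without, against 1.47% and 1.14% in the flanks. Its difference was -1.92 points, with an interval that held 0. Among peaks with less than 50% repeated 32-mers it was -3.48 points (-6.89 to -0.00711). It was -5.26 among the weakest SOX2 peaks (-10.0 to -0.124) and 0.152 among the strongest, where the interval held 0. Over all peaks, the octamer share was therefore not higher with BRM, unlike the composite share. The composite lay close to the summit in both groups, at a median of 26.5 bp with BRM and 27.5 bp without.

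Letters of KLF, TFAP2 and ZIC factors were more frequent at SOX2 peaks with BRM. KLF matches were in 17 of 848 windows (2.00%) against 2 of 1092 (0.183%), TFAP2 matches in 7.90% against 3.11% (difference 4.79 points, 2.76 to 6.98) and ZIC matches in 6.60% against 3.39% (3.22 points, 1.28 to 5.30). In the flanks the shares were 0.413% and 0.321% for KLF, 3.30% and 2.79% for TFAP2 and 3.66% and 4.35% for ZIC. Protein-coding TSS windows held these letters in 1.86%, 17.0% and 7.96%. The differences kept their direction, with intervals that left out 0, over 1 kb from any TSS: 1.64 points for KLF, 4.78 for TFAP2 and 2.52 for ZIC. Among the strongest SOX2 peaks of 3 equal groups, the intervals for TFAP2 (2.46 points, -0.894 to 5.80) and ZIC (2.59 points, -0.423 to 5.64) held 0. Median GC content was 43.0% with BRM and 41.5% without, and its part in these differences was not tested. TEAD letters were found in 18.8% and 19.2% (difference -0.481 points, -3.97 to 3.07).

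Other letters stood at the centre of BRM peaks without SOX2. The SOX core was in 19.0% of their windows, no more than in their flanks (20.6%). The composite was in 1.48% against 0.549% in the flanks (difference 0.935 points, 0.742 to 1.14) and the octamer in 2.12% against 1.26%. TFAP2 matches were in 17.5%, ZIC in 8.18%, KLF in 2.74% and CTCF in 7.49%, against 5.81%, 5.18%, 0.570% and 1.99% in the flanks. Naïve BRG1 peaks without SOX2 held them in 16.1%, 8.26%, 2.10% and 8.05%. That set keeps the sites that also have BRM, and 87.1% of the BRM peaks without SOX2 overlapped naïve BRG1. The 2 sets therefore share sites, and whether the letters are particular to BRM was not tested. The BRM peaks with SOX2, centred in the same way, held TFAP2 letters in 6.43% (difference -11.0 points, -12.6 to -9.08) and CTCF letters in 0.714% (-6.78 points, -7.34 to -5.86). Median GC content was 53.5% in BRM windows without SOX2, 47.5% in their flanks and 44% in BRM windows with SOX2. The part of GC content in these differences was not tested. Protein-coding TSS windows held TFAP2, ZIC, KLF and CTCF letters in 17.0%, 7.96%, 1.86% and 10.3%. Over 1 kb from any TSS, BRM windows without SOX2 still held TFAP2 letters in 12.9% and CTCF letters in 3.95%.

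**Figure D4:**
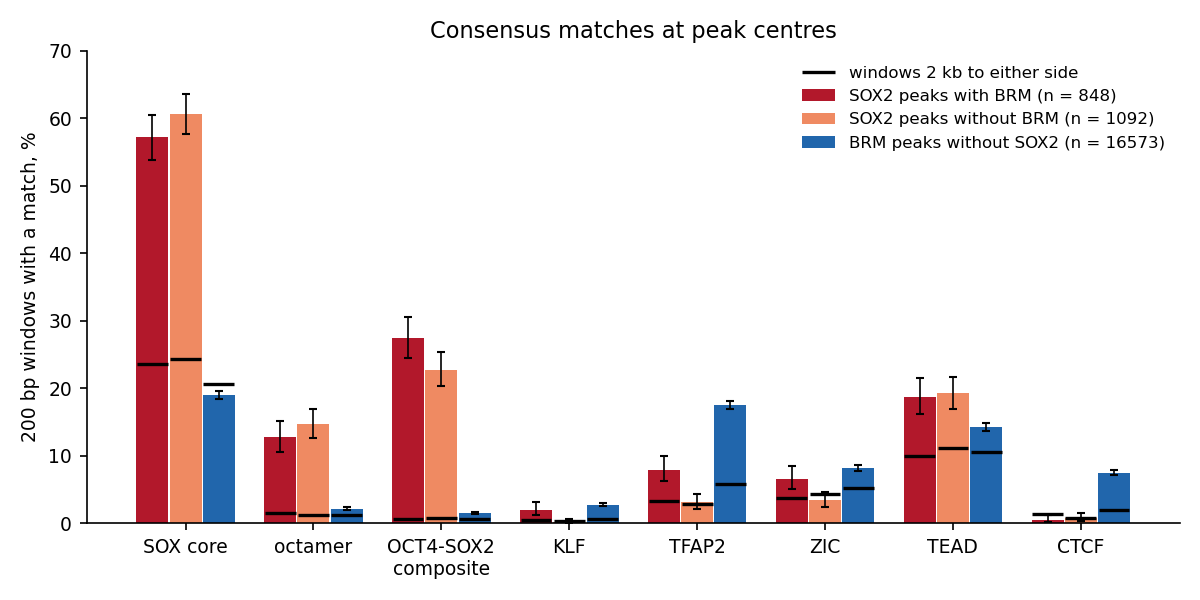
Share of 200 bp windows (%, y axis) with a match to each consensus (x axis) at SOX2 summits with and without BRM and at midpoints of BRM peaks without SOX2; bars are shares, error bars exact 95% intervals, and black lines the shares in windows 2 kb to either side. The composite stands at 27.5% and 22.7% in the SOX2 groups and 1.48% in BRM peaks without SOX2, and TFAP2 at 7.90%, 3.11% and 17.5%.

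Naïve SOX2 peaks with a composite were more often also primed SOX2 sites. A primed SOX2 peak lay at 61.7% of naïve SOX2 peaks with a composite (297 of 481) and 43.4% of those without (633 of 1459), a difference of 18.4 points (13.3 to 23.3). The difference was 17.3 points among peaks with BRM (9.87 to 24.4) and 18.5 among peaks without (11.4 to 25.2). Among peaks that lacked the composite, BRM went with a primed SOX2 share 7.08 points higher (1.92 to 12.2), and among those that held it 5.94 points higher, with an interval that held 0 (-2.74 to 14.5). As given above, the composite share and the primed SOX2 share were both higher at the strongest SOX2 peaks than at the weakest. The part of SOX2 strength in these differences was not tested.

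Genes were assigned to a peak as the nearest protein-coding TSS within 20 kb. Such a gene existed for 412 SOX2 peaks with BRM (48.6%), 505 without (46.2%) and 11359 BRM peaks without SOX2 (68.5%). They amounted to 397, 483 and 6938 genes, or 1.99%, 2.42% and 34.8% of 19962 protein-coding genes. The SOX2 groups shared 39 genes, 9.82% of the genes of peaks with BRM and 8.07% of those without, which stand against the 2.42% and 1.99% of all genes. Of the 397 genes with a joint site, 252 (63.5%) also had a separate BRM peak without SOX2, as did 283 (58.6%) of the 483 genes of SOX2 peaks without BRM. These shares stand against the 34.8% of all genes. The only gene with 3 joint peaks was APOBEC3F, a cytidine deaminase gene in a cluster of related genes, and AMBRA1 and AVL9 each had 3 SOX2 peaks without BRM.

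Of the 10 SOX2 peaks at core pluripotency genes, 9 had BRM, against 43.7% of all naïve SOX2 peaks. Among 15 such genes in the annotation, 8 were nearest to a SOX2 peak with BRM (53.3%) and 1 to a SOX2 peak without (6.67%), against 1.99% and 2.42% of all genes. The 8 were POU5F1, which encodes OCT4, SOX2 itself, NANOG, SALL4, DPPA4, UTF1, PRDM14 and TDGF1, the NODAL co-receptor CRIPTO. They carried 9 peaks with BRM, all 9 at naïve BRG1 and BAF155 peaks and 8 at a primed SOX2 peak, with SOX2 folds from 4.69 to 15.9. Of all SOX2 peaks with BRM, 98.7% overlapped both subunits and 52.2% a primed SOX2 peak. A BRM peak without SOX2 was nearest to 11 of the 15 (73.3%, against 34.8% of all genes), some of them genes with a joint site as well. The list was compiled with earlier results of these data known, and its counts are a description.

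The joint sites at SOX2 and POU5F1 lay away from the genes' own TSSs. At SOX2, a peak 4.22 kb downstream of that TSS and near the TSS of another annotated transcript (chr3:181715961-181716325) had a SOX2 fold of 15.9, a BRM fold of 3.40 and a primed SOX2 fold of 24.2. A second, farther downstream, had a SOX2 fold of 4.69 and a BRM fold of 2.79. At POU5F1, a peak 2.41 kb upstream (chr6:31172938-31173238) had a SOX2 fold of 10.4, a BRM fold of 3.27 and a primed SOX2 fold of 19.2. At TDGF1 the joint site lay 0.055 kb from the TSS, with a SOX2 fold of 11.9 and a BRM fold of 2.84, and at UTF1 it lay 2.13 kb downstream, with 12.3 and 4.70. The printed windows at SOX2 and POU5F1 hold the composite.

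NANOG, the homeodomain factor of the pluripotency network, carried both kinds of peak. Its promoter peak, 0.067 kb upstream of the TSS (chr12:7789186-7789486), had a SOX2 fold of 10.8 and overlapped primed SOX2 and naïve BAF155 but neither BRM nor naïve BRG1. In that peak 62.2% of the 32-mers occur more than once in hg38. Whether reads of the length sequenced can be placed uniquely there was not tested. A weaker peak 2.99 kb upstream had a SOX2 fold of 5.66 with BRM (fold 3.38) and no primed SOX2. Of the 10 SOX2 peaks at core pluripotency genes, the NANOG promoter peak was the one without BRM.

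Of 24 genes used as naïve markers, 6 were named by SOX2 peaks with BRM (KLF17, KLF5, DPPA5, DPPA2, ALPG and ESRRB) and 2 by peaks without (KLF5 and TFCP2L1), against 1.99% and 2.42% of all genes. The difference between the groups was not tested for this or any other list. In the ALPG peak 67.3% of the 32-mers occur more than once in hg38. DPPA5, which encodes a KH-domain protein of pluripotent cells, had one of the strongest joint sites, with a SOX2 fold of 27.5, a BRM fold of 3.03 and a primed SOX2 fold of 22.8 at 4.82 kb downstream. KLF17, a Krüppel-like factor of the early human embryo, had a SOX2 fold of 11.6 and a BRM fold of 3.75, and no primed SOX2 peak. KLF5 had 4 SOX2 peaks: BRM lay at the promoter peak (SOX2 fold 10.5) and at a distal peak (6.58), and was not called at a stronger distal peak 16.7 kb upstream (14.2) or at a peak beside another annotated TSS of the gene (7.06). At KLF5 the 2 peaks with BRM had no primed SOX2 partner, and the 2 without BRM both had one.

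Naïve medium blocks the FGF and ERK pathway and primed medium feeds it. Of 26 genes of the pathway, most had no SOX2 peak in either group, 5 were named by SOX2 peaks without BRM (among them FGFR1, SPRY2, DUSP6 and ETV5) and 1 was named by a peak with BRM (FGFR1), against 2.42% and 1.99% of all genes. DUSP6, a phosphatase that inactivates ERK, had 2 such peaks with SOX2 folds of 8.08 and 9.66, both overlapping 1 primed SOX2 peak. ETV5, an ETS factor induced by ERK, had a promoter peak with a fold of 6.35 and no primed partner. FGFR1 held both kinds close together, with folds of 6.93 without BRM and 7.07 with BRM. The BRM peaks without SOX2 named 15 of the 26 (57.7%), against 34.8% of all genes. Such a share was common among the lists, as given below.

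Other lists gave small counts, to be read against 1.99% of all genes with BRM and 2.42% without. Primed markers had 1 of 24 with BRM (SFRP2, a WNT antagonist) and 3 without (DUSP6, OTX2 and ETV5). The lists share genes, so their counts are not independent. DUSP6 and ETV5 are also FGF and ERK genes, and SFRP2 is also a WNT gene. TDGF1 and SOX2 are also core pluripotency genes. NODAL and TGF-beta genes had 3 of 18 with BRM (LEFTY1, TDGF1 and ID1) and 2 without (LEFTY1 and LEFTY2), and WNT genes 3 of 22 with BRM (WNT3, FZD7 and SFRP2) and 2 without (FZD5 and TCF7L1). Trophoblast genes had 0 of 22 with BRM and 1 without, WWTR1, which encodes the YAP partner TAZ. Endoderm genes had 2 of 16 in each group, SOX family genes 2 and 3 of 19, neuroectoderm genes 1 and 0 of 18, and LIF and STAT3 genes 0 and 1 of 12. DNA methylation enzymes had 0 of 9 in both groups, and BRM peaks without SOX2 named 8 of the 9, against 34.8% of all genes. These BRM peaks passed the 34.8% of all genes in every list but primed markers (29.2%). The lowest of the other shares was 42.1%, for SOX family genes, so a high share was not particular to 1 list.

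**Figure D5:**
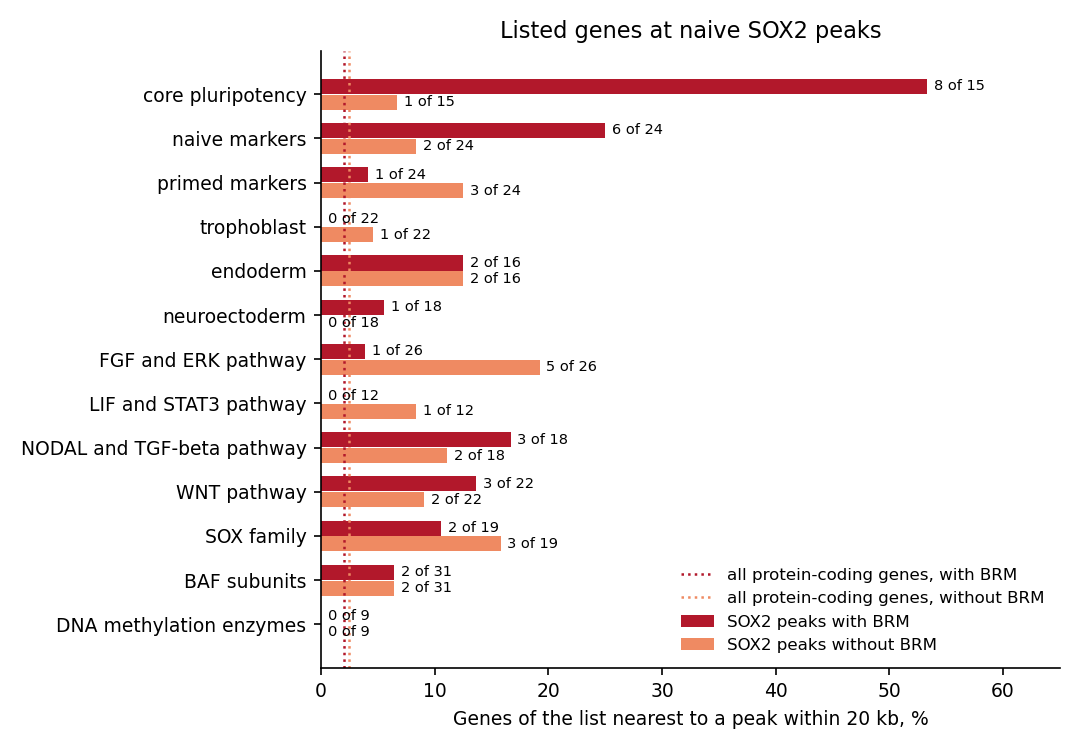
Share of each gene list (%, x axis) nearest to a naïve SOX2 peak within 20 kb, with and without BRM; bars are shares with counts beside them, and dotted lines mark the shares of all protein-coding genes, 1.99% and 2.42%. Core pluripotency genes reach 53.3% with BRM and 6.67% without, and FGF and ERK genes 3.85% and 19.2%.

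The gene that encodes BRM was itself a joint site. SMARCA2 carried the second strongest of all 1940 naïve SOX2 peaks, 1.08 kb downstream of a TSS in an intron (chr9:2018750-2019393), with a SOX2 fold of 31.2. The naïve BRM peak there spanned chr9:2018519-2019445 with a fold of 3.20, near the median of BRM peaks. SOX2 was called at the same place in primed cells with a fold of 24.8, as was BAF155, while naïve BRG1 and BAF155 overlapped it too. A second SOX2 peak, intergenic and 19.1 kb downstream of the nearest TSS of the gene, had a fold of 7.03 and no BRM. Other BAF subunit genes with a SOX2 peak were BCL7C, with BRM, and BCL11A, without, so 2 of 31 were named in each group.

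The other strongest joint peaks lay near ETV6, SPIC, MAST2 and REST. The ETV6 peak, 40.5 kb upstream of this ETS repressor gene, had the highest SOX2 fold of the list, 42.2, with a BRM fold of 2.87. SPIC, an ETS factor gene, had a peak 1.05 kb upstream with a SOX2 fold of 30.6, a BRM fold of 2.91 and no primed SOX2 peak. The MAST2 peak, in an intron of this kinase gene, had a fold of 29.3, and the REST peak, 0.307 kb upstream of the repressor of neuronal genes, had a fold of 28.2 and a primed SOX2 fold of 35.7. SOX5, a SOX family gene, had a joint peak of fold 22.8 in an intron. The 6 joint peaks of highest fold were those of ETV6, SMARCA2, SPIC, MAST2, REST and DPPA5. All 6 overlapped naïve BRG1 and BAF155, as did 98.7% of all SOX2 peaks with BRM. BRM folds at the 6 ranged from 2.56 to 3.67, against a median of 3.07 for all BRM peaks with SOX2.

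The strongest SOX2 peaks without BRM were among the stronger peaks of the whole list. They lay near ZNF483 (fold 27.2), NLGN1, STXBP5 (26.7), DND1 (26.1) and TRIM26, in falling order of fold. NLGN1 and STXBP5 encode synaptic proteins and their peaks lay 96.3 and 57.3 kb from a TSS. DND1 encodes a germ cell RNA-binding protein, and the DND1 and TRIM26 peaks had no primed SOX2 partner. All 5 overlapped naïve BRG1 and BAF155, as did 72.0% of all SOX2 peaks without BRM. Among genes of 6 of the lists (core pluripotency, naïve and primed markers, trophoblast, SOX family and BAF subunits), the peaks of highest fold without BRM were at WWTR1 (17.6), SOX6 (14.4), KLF5 (14.2), NANOG (10.8), a second WWTR1 peak (10.0) and DUSP6 (9.66). The WWTR1 promoter peak of fold 10.0 and the NANOG peak were the 2 of these that did not overlap naïve BRG1.

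The strongest BRM peaks without SOX2 lay near MED27 (fold 11.4), DPP6 (10.7), S100A7A (10.7), KBTBD8 (10.1) and TAFA4 (9.88). MED27 encodes a Mediator subunit and DPP6 a partner of potassium channels. The MED27 and KBTBD8 peaks lay 34.5 and 115 kb from the TSS. All 5 overlapped naïve BRG1 and BAF155, as did 83.3% of all BRM peaks without SOX2, and primed BAF155, as did 49.5%. Among genes of the same 6 lists, the highest folds were at DPF3, a BAF subunit (5.61), CDH2, which encodes N-cadherin (4.83), LIN28A (4.82), CGA, the shared subunit gene of the gonadotropins (4.38), SOX10, a neural crest factor (4.32), and GATA2, a trophoblast and blood factor (4.10). Of these, the LIN28A peak alone overlapped primed SOX2, and the CGA peak alone lacked naïve BRG1.

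Chromosome X held 4.83% of SOX2 peaks with BRM, 5.13% of those without and 1.73% of BRM peaks without SOX2, and the interval of the difference between the SOX2 groups held 0 (-0.293 points, -2.23 to 1.73). BRM lay at 32.1% to 61.1% of SOX2 peaks from chromosome to chromosome, with a median of 44.4%. Sequence that mostly occurs more than once in the genome, counted by 32-mers, made up 10.6% of SOX2 peaks with BRM and 16.2% of those without (difference -5.60 points, -8.58 to -2.54). Without such peaks, BRM lay at 45.3% of SOX2 peaks and the primed SOX2 difference was 5.85 points (1.04 to 10.6).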

How the data were processed

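Chromatin immunoprecipitation sequencing (ChIP-seq) peak lists of WIBR3 hESCs were used, 1 per sample. According to the study's methods and labels, the authors trimmed reads, aligned them to hg38 with Bowtie2 2.3.4, removed duplicates (SAMtools 0.1.19 is named in the labels) and called peaks with MACS2 against input, narrow for SOX2 and broad for BAF subunits. The deposited lists give positions and, for all but primed BRM and the second SOX2 lists, a score, a fold enrichment (a linear ratio over input), and −log10 of p-values and q-values. The deposited values were used as given and only within a list. The input libraries were not used. Whether the SOX2 libraries were pooled before calling is not given in the sources used here.

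Starts were written 1-based. Overlap followed the study's rule (25% of either region), computed in Python 3.11.15 with numpy 2.4.6, pandas 2.3.3 and scipy 1.17.1. The overlap function was tested against bedtools 2.31.1, and the nearest TSS, intervals and motif search were tested on simulated data. TSSs and classes came from GENCODE release 44, and a peak within 1 kb of any TSS was called a promoter peak before exon, intron and intergenic classes. Shares have Clopper-Pearson 95% intervals, medians order-statistic intervals and differences Newcombe intervals. No p-value is given, because peaks of 1 library are not replicates. The precision of a share depends on the number of peaks, and the peak lists carry no read counts.

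Sites named are the 5 peaks of highest fold in each group, the 6 of highest fold in each group at genes of 6 lists (core pluripotency, naïve markers, primed markers, trophoblast, SOX family and BAF subunits), peaks at the overlap threshold, and SOX2 peaks at core pluripotency and other listed genes, the last chosen after their values were seen. Chromosome 8 was left out of the named peaks of highest fold. One listed gene is not reported here by name. The groups, members and gene lists were chosen with earlier results of these data known. Alternatives tried were other overlap rules, thresholds, widths, promoter distances and subsets of peaks.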

Additional observations from a re-analysis of the deposited data

How the results depend on the processing

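The 10 results were recomputed under 18 alternatives, which gave 125 values, and 106 of them were counted as the same. For a difference this means that direction and side of the criterion were kept, while the co-occupancy shares have neither. The 106 include the values from the second SOX2 lists, which could not change. Of the others, 9 shares moved, 2 differences reversed direction, 6 gained an interval that held 0 and 2 an interval that left it out. BRM lay at 37.7% of SOX2 peaks under a rule of 25% coverage of each of the regions, at 21.7% with 50% of both, at 10.3% with BRM peaks of −log10 q of at least 3, and at 3.61% with as many BRM as SOX2 peaks. Among regions in naïve BRG1 and BAF155 peaks, an alternative chosen after seeing the data, it was 51.6%. SOX2 lay at 4.19%, 2.42%, 3.61% and 5.68% of BRM peaks under the same settings except the −log10 q limit. The promoter share of SOX2 peaks with BRM minus that without was 7.39 points with the −log10 q limit on BRM, 5.03 in the highest of 3 groups by SOX2 fold and -0.732 with promoters of 2 kb. The primed SOX2 difference between SOX2 peaks with and without BRM was 9.55 points with as many BRM as SOX2 peaks, 5.56 and -1.03 in the highest and lowest of the 3 groups by SOX2 fold, and 4.75 among regions in naïve BRG1 and BAF155 peaks, each with an interval that held 0. With 50% of both regions covered, the naïve BRG1 and BAF155 differences were 4.37 and 3.42 points, and in the lowest group by SOX2 fold the primed BAF155 difference was 7.77 points, again with intervals that held 0. The causes were not tested. The 3 groups and the lists of equal length hold fewer peaks and so have wider intervals.

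Leaving out the first SOX2 list of a state changed no value, because the second holds the same coordinates. No paired analysis was possible because no test over samples was made and the SOX2 lists of a state are identical. The planned restriction to peaks outside soft-masked repeats was not run, since the reference used here carries no masking. Peaks with under 50% repeated 32-mers, chosen after seeing the data, took its place, and all 10 results were counted as the same.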
